A study of Mus musculus with 6 samples.

Results

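Messenger RNA of 10 genes of the oxygen-sensing pathway was followed in mouse renal cortex after ischemia and reperfusion. The genes were found by symbol in the table of 22040 genes, each matching 1 gene: Hif1a, Epas1, Vhl, Egln1, Egln3, Car9, Bnip3, Ndrg1, Adm and Ankrd37. The samples were wild-type C57BL/6 mice, an inbred laboratory strain, with 3 libraries labelled sham and 3 labelled IR24h. In the IR24h group the pedicles of both kidneys, which carry their blood vessels, had been clamped for 30 min, and tissue was taken 24 h after the clamps were released. No age or sex is given in the labels, nor what the sham operation included. The series addresses the part of RNA oxidation in acute kidney injury, and its comparison is IR24h against sham.

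Cells sense oxygen through the hydroxylation of the hypoxia-inducible factors (HIFs), transcription factors made of an oxygen-labile alpha subunit and a stable partner, ARNT. When oxygen is present, prolyl hydroxylases of the EGLN family modify the alpha subunit, and the von Hippel-Lindau protein (Vhl) then marks it for destruction; when oxygen is short, the alpha subunit escapes and switches on target genes. The regulation of the alpha subunit is thus largely at the protein, which RNA-seq does not measure. In the kidney, HIF-1α (Hif1a) is known mainly from tubular epithelium and the second alpha subunit (Epas1) mainly from endothelial and interstitial cells, where it drives erythropoietin.

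Each library's total lay between 14339985 and 17061844 counts in sham and between 12877237 and 15998975 in IR24h. Values of a group are listed in the order of its libraries 1, 2 and 3. Mitochondrially encoded genes made up 13.1 to 14.2% of the counts in sham and 68.9, 26.2 and 49.2% in IR24h. IR24h library 2 stood apart: across genes, its log2 CPM correlated with that of the other IR24h libraries at 0.823 and 0.836, against 0.916 between those libraries. By the same measure, library 2 lay nearer to each sham library than to its own group, at 0.859, 0.857 and 0.848. For IR24h libraries 1 and 3 the values against sham ran from 0.747 to 0.796. A fit without library 2 thus drops the IR24h library most like sham. Where leaving out IR24h library 2 changed the direction or call of any of the 10 genes, results are therefore given with and without it. For Epas1, Egln1, Egln3, Car9 and Ndrg1 neither changed. Some other genes are also given both ways. Sham libraries carried the markers of cortex, with a summed proximal tubule level of 14238 to 15758.5 CPM (counts scaled to library size, with TMM factors between libraries). Among 13609 tested genes, edgeR called 1177 higher and 1037 lower in IR24h (398 and 611 when scaled by library size alone), at an adjusted p under 0.05 in its quasi-likelihood test. This is 16.3% of the genes, 8.65% as higher and 7.62% as lower, the background for counts from this fit. Other fits had other shares: DESeq2 called 15.3% of the genes higher and 12.5% lower, and edgeR without IR24h library 2 called 23.9% higher and 24.5% lower. The FPKM values of the groups were made in different ways: dividing counts by FPKM gave an implied gene length that differed between the groups for 13.1% of comparable genes. Whether both groups were counted with the same annotation is not known, so counts and fold changes of such genes may also be affected. Among the 10 genes the implied length differed for Epas1 (0.14 on the log2 scale, longer in sham). Among genes of the lists below it differed by more for Elob (2.58), Rbx1 (1.92), Fam162a (1.30) and Mxi1 (1.25), among others. The labels do not say whether each library came from its own mouse, so p-values measure the spread between these libraries. In whole cortex, fewer cells of a type and less RNA per cell cannot be told apart.

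Of the 10 genes, 3 fell (Car9, Egln1 and Ndrg1), 0 rose and 7 were not called, against 7.62% lower and 8.65% higher among all genes. DESeq2 called 1 higher (Ankrd37) and 5 lower, against its 15.3% and 12.5% of all genes. Car9 fell furthest, to a level 6.86-fold below sham, and Egln1 and Ndrg1 to levels 2.22-fold and 2.23-fold below. All 10 passed the filter on low counts, which takes CPM over library totals without TMM factors. On that scale Ankrd37 reached the filter's 0.66 CPM in 2 of 3 sham libraries and so passed through the IR24h libraries. The median log2 fold change was −0.42 for the 10 genes and 0.05 for all genes tested. An unadjusted p under 0.05 was reached by 7 of the 10 genes and by 34.1% of all genes tested. In 7 of the 10 genes, those with that unadjusted p, the groups did not overlap, 5 of them with all IR24h libraries below sham and 2 with all above. Among all genes tested the groups did not overlap in 41.5%, lower in 21.7% and higher in 19.9%. With each IR24h library left out in turn, the number of the 10 genes called lower was 2 without library 1, 6 without library 2 and 2 without library 3, against 5.08%, 24.5% and 5.41% of all genes in these fits. It was 1 without sham library 1, 2 or 3, against 1.7%, 1.53% and 1.41% of all genes.

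**Figure D1:**
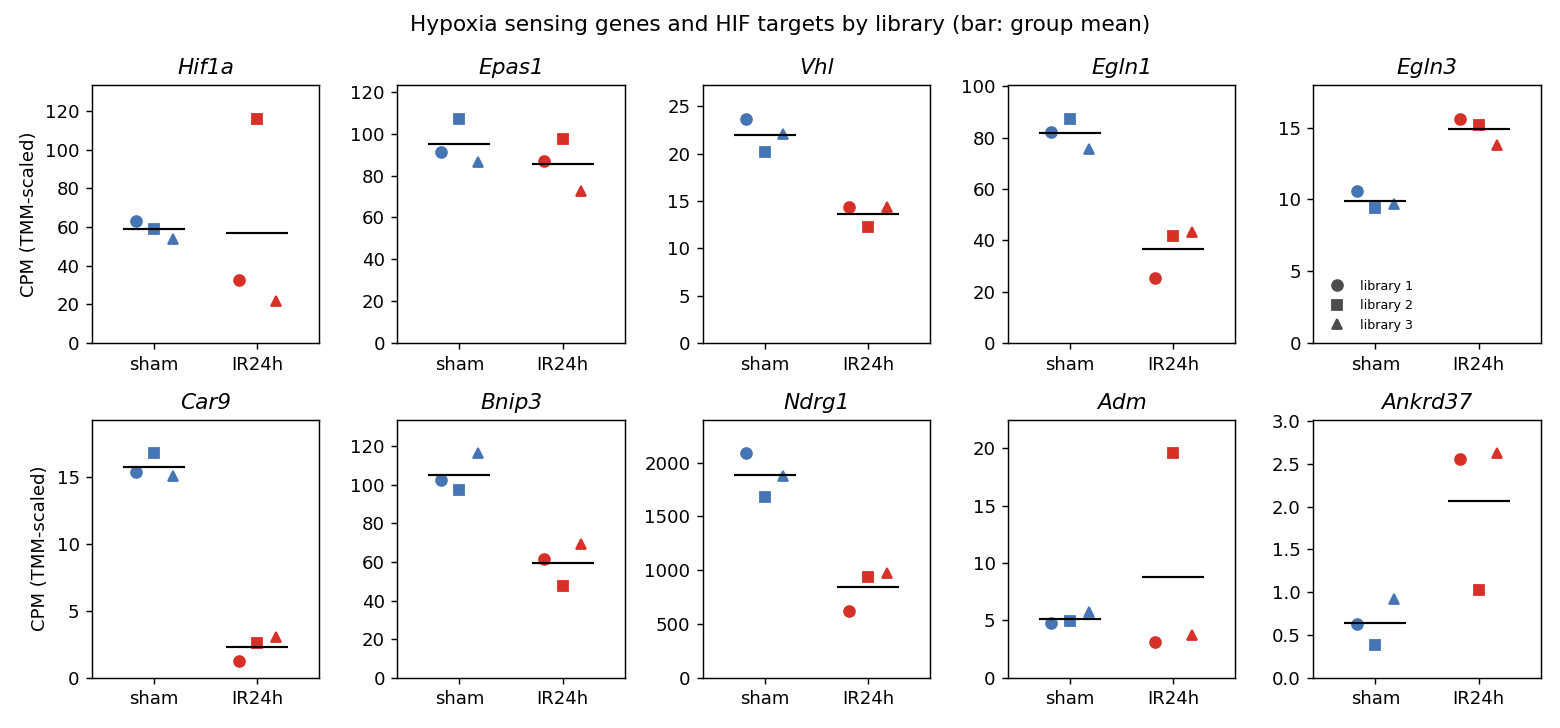
Expression of the 10 genes in each library, in TMM-scaled CPM on linear axes from 0, with symbols for library number and a bar for the group mean of 3 libraries. Hif1a and Adm in IR24h library 2 lie above all sham libraries while IR24h libraries 1 and 3 lie below them; Car9, Egln1, Ndrg1, Bnip3 and Vhl lie below sham in every IR24h library, and Egln3 and Ankrd37 above.

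Promoters stood in the RefSeq-based table (GRCm38.p6) for 8 of the 10 genes. The upstream bases of 4 are shown because they belong to the target that fell furthest (Car9), to the hydroxylase pair whose count ratio is described below (Egln1 and Egln3) and to the target with the highest fold change (Ankrd37). Each runs 5′ to 3′ on the gene's strand and ends at the base before the RefSeq start, which for Car9, Egln1 and Ankrd37 lies inside the span that GENCODE gives the gene. Capitals mark ACGTG and GCGTG, the core letters to which HIF binds, on either strand.
Car9 (chr4:43506776-43507025, plus strand): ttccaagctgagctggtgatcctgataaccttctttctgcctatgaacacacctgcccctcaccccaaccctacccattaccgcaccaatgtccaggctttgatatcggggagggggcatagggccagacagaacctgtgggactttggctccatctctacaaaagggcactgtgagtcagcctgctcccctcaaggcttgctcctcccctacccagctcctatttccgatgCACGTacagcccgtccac
Egln1 (chr8:124949255-124949504, minus strand): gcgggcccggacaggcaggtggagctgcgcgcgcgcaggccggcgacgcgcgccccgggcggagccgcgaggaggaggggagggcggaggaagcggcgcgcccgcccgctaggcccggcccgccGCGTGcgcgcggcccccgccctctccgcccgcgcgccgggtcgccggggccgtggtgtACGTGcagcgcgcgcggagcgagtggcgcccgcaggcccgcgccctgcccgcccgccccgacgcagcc
Egln3 (chr12:54203875-54204124, minus strand): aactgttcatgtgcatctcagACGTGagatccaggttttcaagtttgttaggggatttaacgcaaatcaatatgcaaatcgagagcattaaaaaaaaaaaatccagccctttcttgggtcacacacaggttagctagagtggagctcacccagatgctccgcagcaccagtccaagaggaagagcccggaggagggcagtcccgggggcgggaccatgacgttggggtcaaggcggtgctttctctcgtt
Ankrd37 (chr8:45999851-46000100, minus strand): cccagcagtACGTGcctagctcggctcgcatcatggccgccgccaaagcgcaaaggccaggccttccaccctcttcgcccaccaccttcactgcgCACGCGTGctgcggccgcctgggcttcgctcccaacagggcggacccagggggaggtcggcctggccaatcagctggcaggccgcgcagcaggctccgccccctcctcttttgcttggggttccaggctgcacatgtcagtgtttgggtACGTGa
In the full 300-base window, from 250 bases before to 50 after the start, ACGTG or GCGTG stood on either strand in 7 of the 8 promoters, Vhl being without, and in 43.8% of the 32851 promoters in the table. ACGTG alone stood in 19.6% of all promoters and GCGTG in 32.4%. Bnip3 had 5 matches, Ankrd37 had 4, Hif1a had 3, Egln1 and Adm had 2 each and Egln3 and Car9 had 1 each. A CACGTG counts on both strands, as in Hif1a and Bnip3, and the matches within CACGCGTG of Ankrd37 overlap. A match of these short strings describes the letters and does not show binding; genes with matches fell (Car9, Egln1) and were not called (Hif1a, Egln3, Bnip3, Adm, Ankrd37).

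Neither alpha subunit gene was called. Hif1a (ENSMUSG00000021109; GRCm38 chromosome 12, 73901375 to 73947530) had 63.2, 59.1 and 53.9 CPM in sham and 32.8, 116 and 21.9 CPM in IR24h. IR24h library 2 was above every sham library and IR24h libraries 1 and 3 below every one, so the groups overlapped on both sides. The group means, 58.7 ± 4.62 (SD, n = 3) and 57.0 ± 51.6 CPM, hid this split, and the log2 fold change was −0.04 ± 0.58 (SE; edgeR adjusted p = 0.968). Without IR24h library 2, Hif1a was lower, at −1.11 (adjusted p = 0.00815). Without IR24h library 1 or 3 the value was 0.23 or 0.35 (adjusted p = 0.838 and 0.680).

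Epas1 (ENSMUSG00000024140; chromosome 17, 86753700 to 86833410) had 91.2, 107 and 86.4 CPM in sham and 86.9, 97.5 and 72.4 CPM in IR24h. The groups overlapped, and the IR24h library that was highest for Hif1a lay within the sham range for Epas1. The log2 fold change was −0.15 ± 0.24 (edgeR adjusted p = 0.693), with the implied length differing as given above. The ratio of Hif1a to Epas1 counts within a library does not depend on how libraries are scaled. Its log2 was −0.53, −0.86 and −0.68 in sham and −1.40, 0.25 and −1.72 in IR24h. Library 2 was thus the one IR24h library with more Hif1a than Epas1 counts, and the other 2 lay below all sham libraries. The difference of the means was −0.27 (exact permutation test, 2-sided, p = 0.8; 20 assignments, smallest possible p = 0.1). It was −0.87 without IR24h library 2 and 0.11 without IR24h library 3.

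Of the hydroxylase genes, Egln1 fell and Egln3 was not called. Egln1 (ENSMUSG00000031987; chromosome 8, 124908587 to 124949324), which encodes PHD2, the main hydroxylase acting on HIF in normal oxygen, had 82.2, 87.5 and 75.5 CPM in sham and 25.4, 41.6 and 43.4 CPM in IR24h. Every IR24h library was below every sham library, and library 1 was lowest. Egln1 fell from 81.7 ± 5.99 to 36.8 ± 9.88 CPM (SD, n = 3), a log2 fold change of −1.15 ± 0.28 (edgeR adjusted p = 0.0322). Its direction held with each library left out, at −0.95 to −1.28, but the call was lost without sham library 1, 2 or 3 (adjusted p = 0.126, 0.141 and 0.115) and when scaled by library size alone (−1.53, adjusted p = 0.108).

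Egln3 (ENSMUSG00000035105; chromosome 12, 54178981 to 54203860), which encodes PHD3, a hydroxylase that is itself a HIF target, had 10.6, 9.42 and 9.66 CPM in sham and 15.6, 15.2 and 13.8 CPM in IR24h. All IR24h libraries were above all sham libraries and lay close together, library 2 included. The log2 fold change was 0.59 ± 0.24, not called (edgeR adjusted p = 0.130), and 0.13 when scaled by library size alone, where the median of all genes was −0.39. The log2 ratio of Egln3 to Egln1 counts, free of scaling, was −2.96, −3.21 and −2.96 in sham and −0.70, −1.45 and −1.65 in IR24h. The groups did not overlap, and the ratio was higher in IR24h by 1.78 on the log2 scale. The 2-sided exact permutation p was 0.1, the least that the 20 assignments of 3 and 3 libraries can give. The difference was 1.49 to 1.97 with each library left out in turn, and 1.87 without IR24h library 2.

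**Figure D2:**
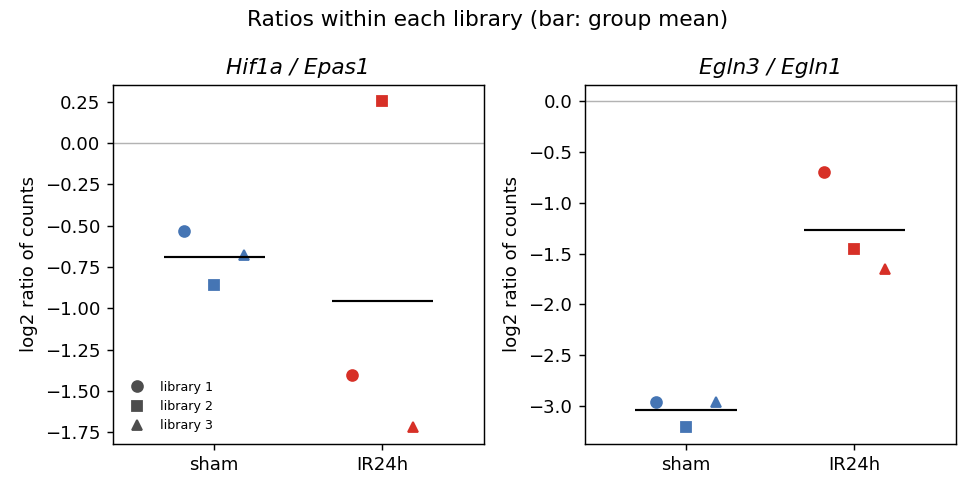
Log2 ratio of counts within each library for Hif1a over Epas1 (left) and Egln3 over Egln1 (right), with a bar for the mean of 3 libraries and a line at equal counts. The Hif1a ratio of IR24h library 2 stands at 0.25, above sham, with the other IR24h libraries below sham; the Egln3 ratio is above sham in all 3 IR24h libraries.

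Vhl (ENSMUSG00000033933; chromosome 6, 113623959 to 113631633), the substrate-recognising part of the ubiquitin ligase that removes HIF, had 23.7, 20.2 and 22.1 CPM in sham and 14.3, 12.3 and 14.3 CPM in IR24h. Its groups did not overlap, with a log2 fold change of −0.69 ± 0.24, not called by edgeR (adjusted p = 0.0841). It was called lower by DESeq2 (−0.68, adjusted p = 0.0287) and by edgeR without IR24h library 2 (−0.62, adjusted p = 0.0329).

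The other sensing genes were a list of 22 holding the HIF partners, the remaining hydroxylases, the ligase subunits and cofactors. Of 22 tested, 0 were called higher and 0 lower, against 8.65% and 7.62% of all genes. An unadjusted p under 0.05 was reached by 1 of them, DESeq2 also called 0 higher and 0 lower, and without IR24h library 2 edgeR called 2 higher and 4 lower, against 23.9% and 24.5% of all genes. Their median log2 fold change was 0.02. Egln2, which encodes PHD1, and Hif1an, which encodes the asparagine hydroxylase FIH, are named for their kinship with Egln1 after their values were seen. Egln2 had 63.5 ± 5.26 CPM in sham and 48.2 ± 7.98 in IR24h (adjusted p = 0.280) and Hif1an 43.0 ± 5.65 and 30.3 ± 5.64 (adjusted p = 0.211), in both cases without overlap of the groups. Without IR24h library 2, Egln2 was called lower (−0.54, adjusted p = 0.0363). Arnt, the shared HIF partner, had 27.0 ± 6.53 and 21.1 ± 10.2 CPM (adjusted p = 0.582). The most abundant member, the chaperone gene Hsp90ab1, had 800.0 ± 45.9 and 1180.2 ± 337 CPM (adjusted p = 0.243).

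Of 5 further HIF targets among the 10 genes, Car9 and Ndrg1 fell, Bnip3 was lower without a call, Ankrd37 was higher without a call and Adm was split between libraries. Car9 (ENSMUSG00000028463; chromosome 4, 43506966 to 43513729) encodes carbonic anhydrase IX, a cell-surface enzyme that handles acid and is a widely used marker of HIF activity. It had 15.4, 16.8 and 15.1 CPM in sham and 1.28, 2.56 and 3.06 CPM in IR24h, from 270, 349 and 280 counts and 9, 50 and 35 counts. No IR24h library came near the sham range. The fall was −2.75 ± 0.37 on the log2 scale (edgeR adjusted p = 0.00472), and the call held under each of the 14 alternatives run, at −2.50 to −3.13. Of the exon bases of Car9, 9.29% lie opposite Gm12454, and 6.35% of those of Ndrg1 opposite Gm17035; with strandedness not given, reads of such pairs cannot be told apart.

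Ndrg1 (ENSMUSG00000005125; chromosome 15, 66929318 to 66969640), a stress-responsive gene induced by hypoxia, was the most abundant of the 10. It had 2087, 1685 and 1879 CPM in sham and 625, 935 and 978 CPM in IR24h. The groups did not overlap, and the fall was −1.15 ± 0.31 on the log2 scale (edgeR adjusted p = 0.0435). The call lay near the threshold. It was lost without sham library 1, 2 or 3 (adjusted p = 0.180, 0.143 and 0.157), without IR24h library 1 or 3 (0.0690 and 0.0624) and with upper-quartile scaling or library size alone (0.0525 and 0.110), each time in the lower direction.

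Bnip3 (ENSMUSG00000078566; chromosome 7, 138890836 to 138909519), a mitochondrial protein gene that promotes the removal of mitochondria, had 102, 97.1 and 116 CPM in sham and 61.4, 47.3 and 69.6 CPM in IR24h. The groups did not overlap, at −0.83 ± 0.25 on the log2 scale, not called by edgeR (adjusted p = 0.0622). DESeq2 called it lower (adjusted p = 0.0146), as did edgeR without IR24h library 2 (−0.69, adjusted p = 0.0172). Its counts are uncertain, since 47.2% of its 50-base stretches also occur in transcripts of other genes, AC160336.1 most of all, and 22.3% of its exon bases lie opposite Gm45507.

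Ankrd37 (ENSMUSG00000050914; chromosome 8, 45996902 to 46005707), a small ankyrin-repeat gene induced by HIF, was the lowest of the 10, with 11, 8 and 17 counts in sham and 18, 20 and 30 in IR24h. These correspond to 0.628, 0.385 and 0.917 CPM and to 2.56, 1.02 and 2.62 CPM. All IR24h libraries were above sham, library 2 by a narrow margin. The log2 fold change was 1.65 ± 0.57, not called by edgeR (adjusted p = 0.0868), and called by DESeq2 (1.67, adjusted p = 0.0410) and by edgeR without IR24h library 2 (1.999, adjusted p = 0.0133). Of its exon bases, 22.7% lie opposite Lrp2bp.

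Adm (ENSMUSG00000030790; chromosome 7, 110627661 to 110629820), which encodes the vasodilator peptide adrenomedullin, had 4.74, 4.90 and 5.77 CPM in sham and 3.13, 19.6 and 3.76 CPM in IR24h. In counts, the IR24h values were 22, 383 and 43. As for Hif1a, IR24h library 2 was above all sham libraries and the other 2 below them. The log2 fold change was 0.80 ± 0.68 (edgeR adjusted p = 0.443) and −0.57 without IR24h library 2 (adjusted p = 0.130). Its receptor genes, a list of 4 (Calcrl and the Ramp genes), had 0 called of 3 tested by edgeR and 0 at an unadjusted p under 0.05. DESeq2 also called 0, and edgeR without IR24h library 2 called 2 higher, against 23.9% of all genes in that fit. Ramp2, the most abundant and a partner of the receptor, had 10.8, 11.9 and 10.5 CPM in sham and 24.1, 7.46 and 36.6 in IR24h. In Ramp2 IR24h library 2 was thus the lowest of all 6, and without it the log2 fold change was 1.45 (adjusted p = 0.00315), against 1.04 ± 0.52 with it (adjusted p = 0.204). Of the 50-base stretches of Ramp2, 30.7% are shared, mostly with Vps25.

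**Figure D3:**
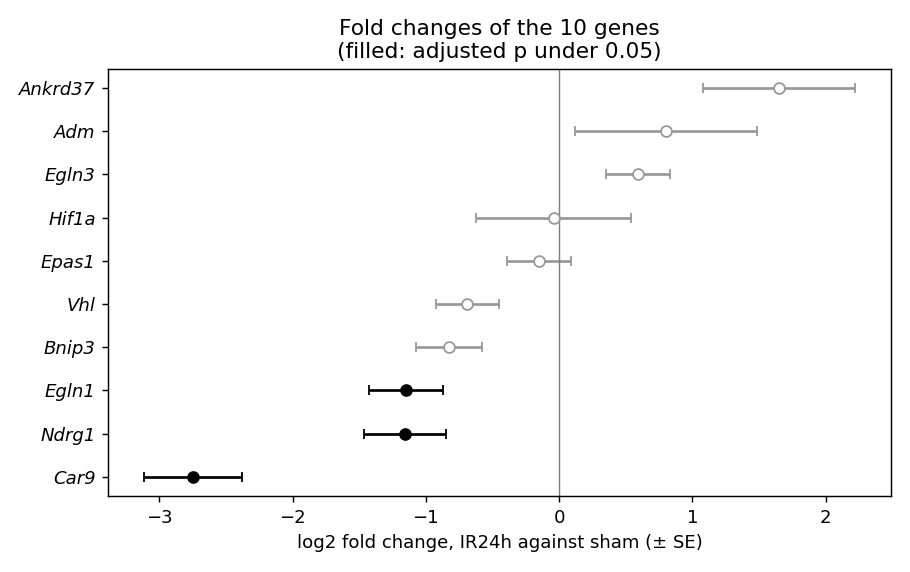
Log2 fold changes of the 10 genes, IR24h against sham, with standard errors from the edgeR fit over 3 and 3 libraries; filled points have an adjusted p under 0.05. Car9 (−2.75), Ndrg1 and Egln1 (both −1.15) are filled, and the widest errors belong to Adm (0.68), Hif1a (0.58) and Ankrd37 (0.57).

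The arrangement seen in Hif1a and Adm, with IR24h library 2 above all sham libraries and IR24h libraries 1 and 3 below them, was chosen after these values were seen. It occurred in 1158 of the 13609 genes tested, 8.51%. Markers of cell types also set IR24h library 2 apart. Calls of markers stand against 8.65% of all genes called higher and 7.62% called lower. The 10 endothelial markers summed to 465 to 512 CPM in sham and to 667, 110 and 663 CPM in IR24h, with 1 called lower and 9 not called. The 10 proximal tubule markers, 7 of them called lower, summed to 1328, 3272 and 1973 CPM in IR24h. Markers of fibroblasts and pericytes, 6 of 7 called higher, summed to 96.2 to 107 CPM in sham and 1787, 343 and 828 CPM in IR24h. Of the myeloid markers, 9 gene IDs were tested (Itgam has 2), with 6 called higher and 0 lower. The markers summed to 62.0 to 64.0 CPM in sham and 176, 87.9 and 199.8 CPM in IR24h. Adgre1 went the other way without a call, with 77, 94 and 80 counts in sham and 2, 71 and 4 in IR24h. Its implied length also differed, as did that of Csf1r, the most abundant myeloid marker (0.40 on the log2 scale). Among the other markers summed here it differed for Acta2 of the fibroblast list (0.32) and Slc22a6 of the proximal tubule list (−0.015). Ly6g was at 0 counts in all libraries. Adipocyte markers, of which Adipoq, Lep and Plin1 were at 0 counts in sham, summed to 13.4 to 23.4 CPM in sham and 69.9, 129 and 83.1 CPM in IR24h, with 1 of 5 tested and called higher (Fabp4). In IR24h, Adipoq had 0, 313 and 3 counts, Lep 0, 435 and 0 and Plin1 0, 247 and 0, so that these defining fat cell genes were at or near 0 outside IR24h library 2. The part of these cells in the values of the 10 genes was not tested. In IR24h library 2, Epas1 stood at 97.5 CPM beside the low endothelial sum.

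Other tubular segments had some lower markers. Thick ascending limb markers had 1 of 4 called lower and collecting duct markers 2 of 5. Outside the tubule, 4 red cell markers were tested and 0 of them called. The 4 urothelial markers did not pass the filter, so 0 were tested. Of the adrenal markers 1 was tested and not called, with Cyp11a1, Cyp11b1 and Cyp21a1 at 0 counts in all libraries.

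**Figure D4:**
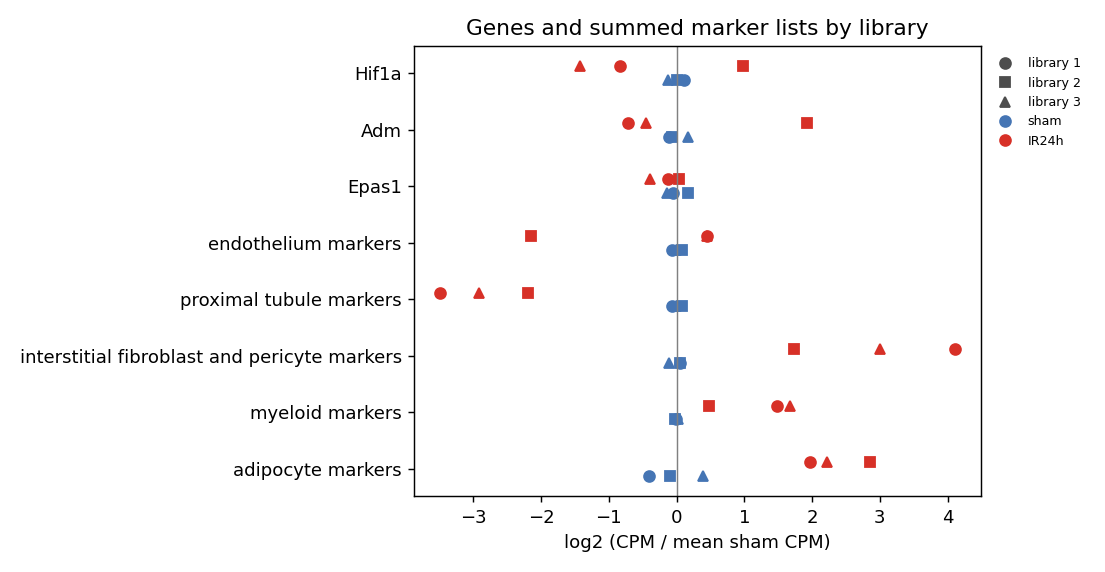
Level of Hif1a, Adm and Epas1 and the summed level of 5 marker lists in each library, as log2 of the CPM over the mean sham CPM, with colours for the group and symbols for library number. IR24h library 2 (red square) is above sham for Hif1a and Adm, near sham for Epas1 and below the other libraries for endothelial markers, where IR24h libraries 1 and 3 coincide at 667 and 663 CPM; it is the highest for adipocyte markers, at 129 CPM.

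Levels were compared between genes per length, on the authors' FPKM scale and within 1 group. In sham, Ndrg1 stood highest with 246 ± 29.1 FPKM (SD, n = 3), followed by Bnip3 (36.8 ± 2.22 FPKM), Egln1 (25.2 ± 2.64 FPKM), Epas1 (17.97 ± 2.51 FPKM), Hif1a (9.36 ± 1.05 FPKM), Vhl (6.33 ± 0.574 FPKM), Car9 (4.67 ± 0.386 FPKM), Egln3 (4.11 ± 0.342 FPKM), Adm (3.21 ± 0.224 FPKM) and Ankrd37 (0.23 ± 0.088 FPKM). Of neighbours in this order, the ranges of Car9 and Egln3 overlapped, and those of the other neighbours did not. In IR24h, Ndrg1 remained first in each library, at 40.4, 135 and 99.5 FPKM. Of the other neighbours, the ranges of Vhl and Car9 did not overlap, with 3.05 ± 0.942 and 0.577 ± 0.344 FPKM. In sham Car9 was above Egln3 in 3 of 3 libraries, and in IR24h it was close to Ankrd37, at 0.533 ± 0.177 FPKM.

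**Figure D5:**
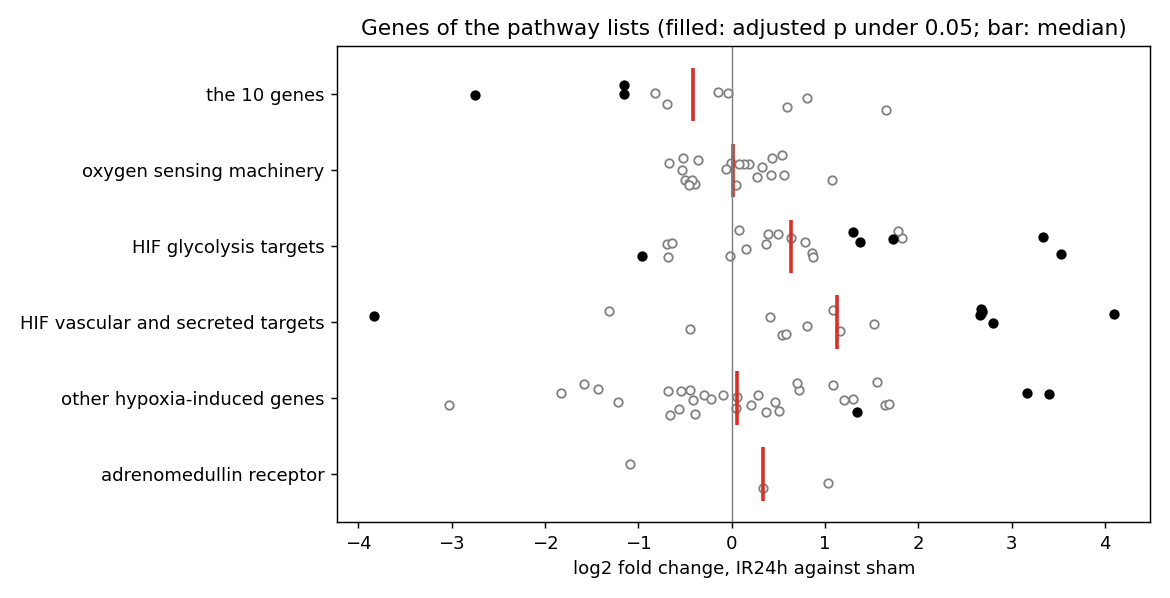
Log2 fold changes, IR24h against sham, of the 10 genes and of the tested genes of 5 lists from the same pathway, 1 point per gene, filled at an adjusted p under 0.05, with a red bar at the median of the list. The 22 other sensing genes hold no filled point, while the glycolysis and the vascular and secreted target lists each have 5 filled points to the right of 0 and 1 to the left.

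The other HIF targets were read from lists; called genes beyond the naming rule (Slc2a1, Pfkp, Gapdh, Edn1, Angpt2, Hmox1 and Ddit4) are named after their values were seen. Of 21 glycolysis targets tested, 5 rose, 1 fell and 15 were not called, with a median log2 fold change of 0.64. Among all genes, 8.65% were called higher and 7.62% lower. The groups did not overlap for 6 of the 21 on the higher and 4 on the lower side, against 19.9% and 21.7% of all genes. The 4 lower ones were Pgk1, which was called, and Ldha, Eno1 and Tpi1, which were not. The last 3 are named after their values were seen, and the implied length of Tpi1 differed. Without IR24h library 2, where 3297 of all genes were called higher and 3382 lower, 10 of the glycolysis targets were called higher and 1 lower, against 23.9% and 24.5% of all genes. The 5 that rose with all libraries were the glucose transporter Slc2a1, the lactate exporter Slc16a3 and the enzymes Hk2, Pfkp and Gapdh. Of these, Slc16a3 reached the filter's level in 1 and Hk2 in 2 of 3 sham libraries, so both were tested through the IR24h libraries, where they were high. Slc2a1 rose from 33.8 ± 5.55 to 112 ± 11.7 CPM (1.73 ± 0.25, edgeR adjusted p = 0.00601), with 104, 107 and 126 CPM in IR24h, so that library 2 lay between the others. Hk2, hexokinase, had 0.742, 0.673 and 0.216 CPM in sham and 6.53, 10.9 and 1.57 CPM in IR24h (3.53 ± 0.79, adjusted p = 0.0249; 2.83 without IR24h library 2), and Slc16a3 0.285, 0.962 and 0.432 CPM in sham and 7.24, 2.30 and 7.95 CPM in IR24h (3.33 ± 0.67, adjusted p = 0.0175). Pgk1, phosphoglycerate kinase, fell from 239 ± 9.08 to 123 ± 25.2 CPM (−0.96 ± 0.26, adjusted p = 0.0426), though 53.9% of its 50-base stretches occur in other genes, as do 25.1% of those of Gapdh. The most abundant, Aldoa, had 672 ± 48.8 and 1043 ± 406 CPM, not called (adjusted p = 0.255). Without IR24h library 2 Aldoa was called higher (0.91, adjusted p = 0.00841).

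Of 16 vascular and secreted targets tested, 5 rose, 1 fell and 10 were not called, with a median log2 fold change of 1.12. Among all genes, 8.65% were called higher and 7.62% lower. DESeq2 called 8 higher and 1 lower, and edgeR without IR24h library 2 called 10 higher and 3 lower of 17, against 15.3% and 12.5% of all genes with DESeq2 and 23.9% and 24.5% without that library. Edn1 (the vasoconstrictor endothelin), Angpt2, Hmox1 (heme oxygenase) and Lox, a collagen cross-linking enzyme, were among those that rose. In Angpt2 the groups overlapped, with 19.2, 2.61 and 24.4 CPM in IR24h and up to 2.75 CPM in sham. Its log2 fold change was 2.68 with and 3.19 without IR24h library 2 (edgeR adjusted p = 0.0495 and 0.000466). Hmox1 was highest in IR24h library 2, with 67.5, 430.5 and 111 CPM in IR24h, and its log2 fold change was 2.67 with and 1.48 without that library (adjusted p = 0.0371 and 0.00511). Lox, with a differing implied length, rose from 1.17 ± 0.624 to 8.25 ± 6.08 CPM, having passed the filter through IR24h (2 of 3 sham libraries reached its level). Igfbp1, an insulin-like growth factor binding protein, fell from 9.48, 19.0 and 16.0 CPM to 0.426, 2.35 and 0 CPM (−3.83 ± 0.98, adjusted p = 0.0373). It passed the filter through sham, with 3, 46 and 0 counts in IR24h. Its fitted value was −6.40 without IR24h library 2, and the call was lost without IR24h library 1 (adjusted p = 0.103) and when scaled by library size alone (0.0614). The most abundant, Angptl4, had 87.8 ± 19.4 and 196 ± 83.0 CPM, not called (adjusted p = 0.0668), with a differing implied length. DESeq2 called Angptl4 higher (adjusted p = 0.0185), as did edgeR without IR24h library 2 (0.0218). Vegfa and Epo, the growth factor and hormone best known as HIF targets, are named after their values were seen. Vegfa had 144 ± 10.2 and 106 ± 16.97 CPM (−0.45 ± 0.24, adjusted p = 0.232; −0.55 and adjusted p = 0.0465 without IR24h library 2), with a differing implied length. Epo was too low to be tested, with 3, 1 and 0 counts in sham and 2, 12 and 0 in IR24h.

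Of 33 other hypoxia-induced genes tested, 3 rose, 0 fell and 30 were not called, with a median log2 fold change of 0.05. Among all genes, 8.65% were called higher and 7.62% lower. DESeq2 called 7 higher and 3 lower, against 15.3% and 12.5% of all genes. Without IR24h library 2, edgeR called 9 higher and 11 lower, against 23.9% and 24.5% of all genes. Mt1, a metallothionein and the most abundant, rose from 64.6 ± 15.1 to 681 ± 449.5 CPM (3.40 ± 0.57, edgeR adjusted p = 0.0102). Ddit4, an inhibitor of mTOR signalling, rose from 9.76 ± 1.74 to 24.7 ± 7.81 CPM (1.34 ± 0.32, adjusted p = 0.0307). Tmem45a, a membrane protein with a differing implied length, rose from 0.405 ± 0.0239 to 3.801 ± 3.46 CPM (3.16 ± 0.78, adjusted p = 0.0330). With 7, 8 and 8 counts it reached the filter's level in 0 of 3 sham libraries and was tested through IR24h.

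Of the 15 called genes of these lists, 1 was still called without each sham library in turn, which was Slc16a3 without sham library 2 (adjusted p = 0.0496) and Slc2a1 without sham library 3 (0.0390). The adjusted p-values of the calls lost in those fits were 0.0518 to 0.173. Without IR24h library 1, 7 were still called and Angpt2, Hk2, Igfbp1, Lox, Pfkp, Pgk1, Slc16a3 and Tmem45a were not. Without IR24h library 3, 8 were still called and Angpt2, Ddit4, Hmox1, Lox, Pgk1, Slc16a3 and Tmem45a were not. Without IR24h library 2 all 15 were called. When scaled by library size alone, 5 were called, among them Slc16a3, Edn1, Mt1 and Tmem45a. With limma-voom 11 were still called, and Angpt2, Hk2, Hmox1 and Tmem45a were not. The replicate block also kept 11, without Angpt2, Hmox1, Pgk1 and Tmem45a, and the fit with no filter kept 14, without Pgk1. Each of the 15 kept its direction in every one of these fits.

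The most similar patterns were sought among tested genes averaging 10 CPM or more, by the root mean square difference of gene-centred log2 CPM over the 6 libraries. Closest to Hif1a were St6gal1 (0.05), Slc30a7 (0.11) and Slc39a10 (0.12). St6gal1, a sialyltransferase gene, had 12.2, 11.01 and 10.6 CPM in sham and 6.11, 20.9 and 3.85 CPM in IR24h, with the same split as Hif1a. Adm, the nearest of the 10 genes to Hif1a, was at 0.46. Closest to Epas1 were Nacc2 (0.06), Zfp24 (0.06) and Hdac4 (0.07), and closest to Egln3 were Hnrnpdl (0.05), Nrd1 (0.05) and Odf2l (0.06). Closest to Car9 were Lrrc3 (0.08), Mgat3 (0.10) and Fmo5 (0.18). Mgat3, a glycosyltransferase gene, had 164, 193 and 149 CPM in sham and 15.3, 32.4 and 33.6 CPM in IR24h. How often matches this close arise with 6 libraries and 13609 genes was not tested, and likeness is given only as a description.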

How the data were processed

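RNA-seq libraries of renal cortex were made from total RNA after a TruSeq guide, per the labels' protocols. CASAVA 1.8, TopHat2 2.0.6 and the builds mm10 and GRCh38 are named, without a role, per the submitters' processing notes; the gene identifiers are of mouse. Not given in the sources used here: the read counter, its annotation and whether libraries were stranded. Raw counts per gene, deposited by the authors, were the main measurement. FPKM, deposited by the authors as counts per gene length and a library total, served to order genes within a group and to derive implied lengths. These were compared for 12806 genes with at least 5 counts in each library, at a limit of 0.01 on the log2 scale. Relative to IR24h library 1, the library total implied by FPKM exceeded the summed counts by 7.9, 8.35 and 9.73% in sham. In IR24h libraries 2 and 3 the excess was 0.00751 and 0.00157%. Of 22040 genes, 83 without sham values were left out. Coordinates and overlaps come from GENCODE M21 (GRCm38).

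Counts were filtered by edgeR's expression filter, scaled by TMM and tested, IR24h against sham, with edgeR 4.0.16 (quasi-likelihood, 2-sided, Benjamini-Hochberg over 13609 genes, R 4.3.3). CPM values use TMM-scaled library sizes, except for the filter's level, which uses library totals. Standard errors derive from the F statistic. Ratios of counts had 0.5 added to each count. DESeq2 1.42.0, limma-voom (limma 3.58.1), other scalings, no filter, a replicate block and leaving out each library were the alternatives. Named genes were the 10 genes, the 2 called genes highest and lowest in fold change and the most abundant gene of each pathway list, and the 3 nearest in pattern (1 gene that the rule names is not reported here); the 10 genes, the lists and the rules were chosen with earlier results of these data known. Shared 50-base stretches were counted over GENCODE transcripts, on both strands. Tables and figures used Python 3.11.15, pandas 2.3.3, NumPy 2.4.6 and matplotlib 3.10.9.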

Additional observations from a re-analysis of the deposited data

How the results depend on the processing

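The number of genes called higher was 2073 with DESeq2, 398 when scaled by library size alone and 246 to 3297 with 1 library left out. The number called lower was 1695, 611 and 196 to 3382. Of the 10 genes, DESeq2 called 1 higher and 5 lower, library size alone and the replicate block 1 lower each, and fits without 1 library 0 to 1 higher and 1 to 6 lower. Hif1a turned to 0.012 with upper-quartile scaling and ranged from −1.11 to 0.35 with 1 library left out, and Adm from −0.57 to 1.19. The log2 ratio difference of Hif1a to Epas1 ranged from −0.87 to 0.11 with 1 library left out. Over the 140 alternative fits of the 10 genes, 115 kept direction and side of the threshold, 5 reversed, 7 gained a call and 13 lost one. The cause was not tested. Over all genes tested, the median log2 fold change was 0.05 with TMM, −0.39 with library size alone and 0.14 with upper-quartile scaling. Whether the replicate numbers pair the libraries cannot be decided from 3 libraries per group. Deviations from group means correlated at −0.11, 0.12 and 0.23 for same-numbered libraries. Sham library 1 correlated best with IR24h library 2 (0.18), and sham libraries 2 and 3 with the IR24h library of their own number. With the replicate block, 814 genes were higher and 843 lower, Egln1 and Ndrg1 were not called (adjusted p = 0.0568 and 0.0948), and sign flips over the pairs gave p = 0.25 for the Egln3 to Egln1 ratio (exact, the smallest possible). Low counts limit Ankrd37, and Car9 in IR24h library 1 (9 counts).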

Other observations

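Among the other hypoxia-induced genes that edgeR did not call, several had groups that did not overlap. They are named after their values were seen. P4ha1, a collagen prolyl hydroxylase subunit, had 38.6 ± 1.41 CPM (SD, n = 3) in sham and 63.7 ± 6.00 in IR24h (adjusted p = 0.0630), and Wsb1 had 35.8 ± 4.85 and 88.2 ± 42.9 CPM (adjusted p = 0.0641). Plin2, a lipid droplet protein, had 93.4 ± 11.8 and 301 ± 286 CPM (adjusted p = 0.104), with 631 CPM in IR24h library 2. On the lower side, Car12, another membrane carbonic anhydrase, had 278 ± 48.8 CPM in sham and 78.1 ± 59.7 in IR24h (adjusted p = 0.0523), Insig2 had 31.8 ± 2.01 and 11.7 ± 8.28 CPM (adjusted p = 0.0843) and Errfi1 had 527 ± 98.8 and 175 ± 180.4 CPM (adjusted p = 0.147). In that list of 33 tested genes the groups did not overlap for 8 on the higher and 4 on the lower side, against 19.9% and 21.7% of all genes tested.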
